A study of Mus musculus with 2 samples.

Results

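The genes described here are those of the angiotensin and endothelin systems: Agt, Ace, Agtr1a, Agtr2, Edn1, Edn2, Ednra and Ednrb. These 8 genes were taken by name from 20549 genes or unnamed transcripts on the array, and each had 1 probe. They had been picked on their level in each pool and their ratio between the pools in these same arrays, so every value below is a description. The values came from granulosa cells, the steroid-making somatic cells of the ovarian follicle. The pool without estrogen receptor beta (ERβ) was made from female C57/Bl6 Esr2-/- mice (the null pool), and its control from female C57/Bl6 Esr2+/- mice (the het pool), which keep 1 intact copy of Esr2. All mice were 23 to 25 days old and had received PMSG, a gonadotropin used to drive follicle growth, for 48 h. Cells were pooled by genotype into 1 RNA sample each, and the number of animals in a pool was not given in the sources used here. Both pools were hybridised together on 2 two-colour Agilent arrays, with the null pool in Cy5 on array 1 and in Cy3 on array 2. The arrays are technical repeats, so an SD covers hybridisation and dye only, and no test across animals was possible.

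Angiotensinogen is cut by renin and then by angiotensin-converting enzyme to angiotensin II, a peptide that constricts vessels through the type 1 receptor and often opposes that action through the type 2 receptor. In the rat ovary, type 2 receptors are known from granulosa cells, mainly of follicles undergoing atresia. Endothelins are short peptides released from larger precursors by endothelin-converting enzymes, and they act on smooth muscle, endothelium and other cells through the receptors ETA and ETB. In rodents Edn2 is known as a gene that granulosa cells switch on briefly around ovulation, when the follicle wall contracts.

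The type 2 receptor gene Agtr2 had the highest ratio of these genes, at 1.68-fold in the null pool relative to the het pool, and the precursor gene Agt followed at 1.22-fold. For these 2 genes, whose ratios were the largest, the 250 bases before the annotated start are printed (RefSeq, GRCm38.p6), with motifs that estrogen receptors and general factors are known to read. Promoter entries were found for 7 of the 8 genes, all but Agtr1a. The Agtr2 window is chrX:21484374-21484623 on the plus strand, and the Agt window is chr8:124569707-124569956 on the minus strand. Capitals mark matches to a TATA box pattern, spelled TATANA. They also mark the half-site of an estrogen response element, which is spelled GGTCA.
Agtr2: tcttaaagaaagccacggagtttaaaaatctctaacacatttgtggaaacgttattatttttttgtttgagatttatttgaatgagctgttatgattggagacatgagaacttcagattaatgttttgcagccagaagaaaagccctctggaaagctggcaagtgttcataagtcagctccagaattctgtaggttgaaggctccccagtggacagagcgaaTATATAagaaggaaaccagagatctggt
Agt: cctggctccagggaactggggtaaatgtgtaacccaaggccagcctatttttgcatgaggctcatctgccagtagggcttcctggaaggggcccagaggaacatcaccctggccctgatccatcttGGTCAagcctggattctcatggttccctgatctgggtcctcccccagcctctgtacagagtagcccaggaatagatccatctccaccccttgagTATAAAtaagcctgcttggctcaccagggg
In the Agtr2 window TATATA began 28 bases before the start, a run that reads the same on both strands, and GGTCA was not found on either strand. In the Agt window TATAAA began 30 bases and GGTCA 124 bases before the start, both on the gene's own strand. On both strands of all 32851 windows of this length in the table, TATANA was present in 22.6% and GGTCA in 35.2%. The whole palindromic estrogen response element, present in 0.0639% of windows, was in none of the members' windows. The same held for the site of the NR5A receptors, which adds AA before the half-site (4.08% of windows). It held too for the AP-1 site, spelled TGANTCA (6.75% of windows). The cAMP response element was also in none of them (TGACGTCA, 1.55% of windows). One of the Ace entries held GGTCA at 4 places. Such matches are letters in a window and show no binding.

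Across the series 21318 non-control spots were read on each array, of which 90.1% to 93.0% were well above background in the null pool and 87.2% to 95.1% in the het pool. A gene was kept where the same pool, null or het, stood well above background on both arrays, which left 18511 genes. The probe of Esr2 itself, the targeted gene, had log2 ratios of null over het of -0.50 and -0.46, averaging -0.48 ± 0.03 (SD, n = 2 hybridisations). The sources used here do not place that probe relative to the disruption, so it does not check the labels. Of the 11 granulosa markers with a probe, 10 had usable spots, and all 10 passed the filter, while the endothelial genes Tek and Tie1 and the leukocyte genes Ptprc and Itgam did not.

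Of the 8 genes, 7 gave signals well above background in all 4 readings. The exception was Ace, which encodes the converting enzyme. Its probe, drawn from the 3' end of the mRNA, gave 1.27 and 1.72 times the local background in the null pool on arrays 1 and 2, and 1.5 and 1.44 times in the het pool. Neither pool cleared the background limit, so no fold is given. For the other 7 genes the spot signal was 1.66 to 20.8 times the local background, and the probes' own levels are not set against each other because probes differ in brightness.

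Agtr2, the type 2 receptor gene, had log2 normalized signals of 8.04 and 7.83 in the null pool on arrays 1 and 2, against 7.32 and 7.05 in the het pool. Both null values lay above both het values. Its log2 ratios of 0.72 (array 1) and 0.78 (array 2) averaged 0.75 ± 0.04 (SD, n = 2 hybridisations). This placed Agtr2 at rank 23 from the highest among the 18511 genes, above 99.9% of them. The raw spot means were 333 and 177 in the null pool, against 112 and 225 in the het pool. On array 2 the het pool was therefore the brighter one before the dyes were balanced. The median over all spots of that array was likewise higher in the het pool, at 128 in the null pool and 256 in the het pool, and on array 1 it was 191 in the null pool and 114 in the het pool.

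The size of the Agtr2 difference depended on how dim spots were treated. The scanner software's own ratios, which carry no offset, were 1.02 and 1.17 on the arrays and averaged 1.10 ± 0.11 (SD, n = 2 hybridisations) or 2.14-fold. Dropping the offset of 50 from the background correction gave 1.07. In the authors' deposited scanner files the error-model p of the Agtr2 log ratio was 1.02e-05 on array 1 and 1.94e-05 on array 2, a measure of that spot's measurement error and not of variation between animals. For the other 6 measured genes the deposited p lay between 0.0568 and 0.84.

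**Figure D1:**
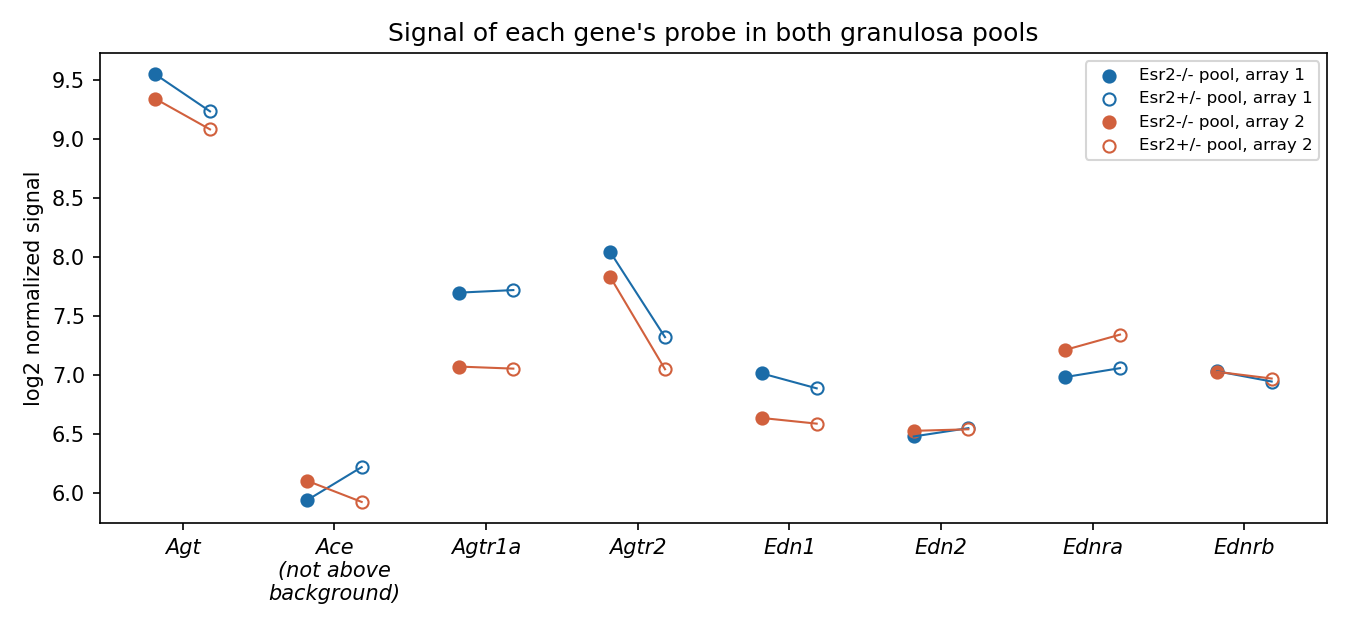
Log2 normalized signal of the probe of each gene in the Esr2-/- pool (filled, left) and the Esr2+/- pool (open, right), with lines joining the pools on 1 array (array 1 blue, array 2 orange). Agtr2 and Agt slope down to the Esr2+/- pool on both arrays, Agtr1a is level, and Ace was not well above background; heights of different genes are not comparable.

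Agt, the angiotensin precursor gene, had log2 signals of 9.54 and 9.34 in the null pool, against 9.23 and 9.08 in the het pool. Its null values also lay above both het values. The log2 ratio was 0.31 on array 1 and 0.26 on array 2 (mean 0.29 ± 0.04, SD, n = 2 hybridisations), and 0.31 from the scanner software. The ratio exceeded that of 97.6% of genes, and it was larger in size in 4.29% of them. With the scanner software's ratios Agt exceeded 94.5% of genes.

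Agtr1a, which encodes the main type 1 angiotensin receptor of mice, had log2 signals of 7.70 and 7.07 in the null pool, against 7.72 and 7.05 in the het pool. The pools overlapped, and the arrays differed from each other far more than the pools did. Its log2 ratios, -0.02 and 0.02, averaged -0.0022 ± 0.03 (SD, n = 2 hybridisations). The receptor genes of angiotensin II thus differed from each other in their ratios. On array 1 the Agtr2 log2 ratio exceeded that of Agtr1a by 0.74 and on array 2 by 0.76, and over 10 alternatives this gap was 0.66 to 1.07. Those 10 include each array alone and settings that cannot change these genes, such as other background filters.

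**Figure D2:**
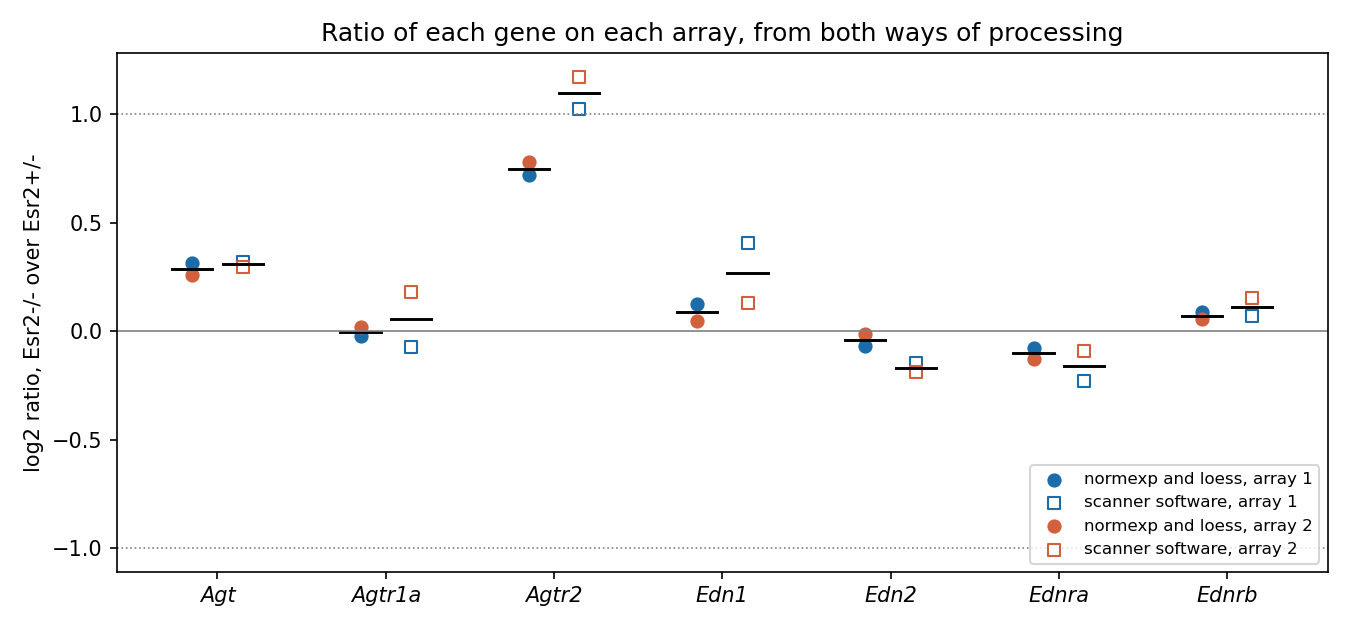
Log2 ratio of the Esr2-/- pool over the Esr2+/- pool for the 7 genes above background, on array 1 (blue) and array 2 (orange), from normexp and loess (filled circles) and from the scanner software (open squares); bars are means and dotted lines mark 2-fold. Agtr2 lies at 0.72 and 0.78 by the first and at 1.02 and 1.17 by the second.

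Among the endothelin ligands, Edn1, a vasoconstrictor best known from endothelium, had log2 signals of 7.01 and 6.63 in the null pool, against 6.89 and 6.59 in the het pool. The pools overlapped across arrays, although the null pool was the higher one within each array. The log2 ratio of Edn1 was 0.09 ± 0.06 (SD, n = 2 hybridisations), and 0.27 ± 0.20 from the scanner software. Edn2, the ligand gene of the ovulating follicle, had 6.48 and 6.53 in the null pool, against 6.55 and 6.54 in the het pool. Its null values lay just below the het values, and the log2 ratio was -0.04 ± 0.04 (SD, n = 2 hybridisations), with -0.17 from the scanner software and 0.01 under median centring. The Edn2 spots were 1.92 and 1.99 times the local background in the null pool, and 1.66 and 2.51 times in the het pool, so its ratio rests on a dim signal.

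The receptor genes of endothelin had small ratios of opposite sign. Ednra, which encodes the ETA receptor of smooth muscle, had log2 signals of 6.98 and 7.21 in the null pool, against 7.06 and 7.34 in the het pool, and a log2 ratio of -0.10 ± 0.04 (SD, n = 2 hybridisations). The pools overlapped across arrays, with the null pool the lower one on each. Ednrb, which encodes the ETB receptor, had 7.03 on both arrays in the null pool, against 6.94 and 6.97 in the het pool, and a log2 ratio of 0.07 ± 0.02 (SD, n = 2 hybridisations). Here the null values lay above the het values. The Ednrb log2 ratio exceeded that of Ednra by 0.16 on array 1 and by 0.19 on array 2. Over the same 10 alternatives, each array alone among them, the gap was 0.16 to 0.30.

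Read as a set, none of the 7 measured genes passed the size rule for a changed gene (2-fold or more on average, with no array under 1.5-fold or in the other direction). Of all genes 0.0378% passed it as higher and 0.0918% as lower in the null pool. With the scanner software's ratios Agtr2 alone of the 7 passed, as higher, beside 0.14% of all genes as higher and 0.243% as lower. At a lower size (1.5-fold or more on average, with a lower minimum on each array) Agtr2 again was the 1 that passed, beside 0.405% of all genes as higher and 0.411% as lower. Ratios had the same sign on both arrays for 6 of the 7 genes, with 4 above and 2 below 0, against 47.0% of all genes (22.7% above and 24.3% below). The signals of the pools did not overlap for 4 of the 7 genes, 3 with the null pool above and 1 with it below, against 17.4% of all genes (8.91% above and 8.48% below). The members were picked with these ratios in view, so nothing is read from these shares. The median log2 ratio of the 7 genes was 0.07, against -0.0038 over all genes. The SD between arrays was 0.02 to 0.06 for these genes, and the median SD over all genes was 0.07. Leaving out Agt and Agtr2, the other 5 genes had mean log2 ratios between -0.10 and 0.09, of the order of the difference between arrays.

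**Figure D3:**
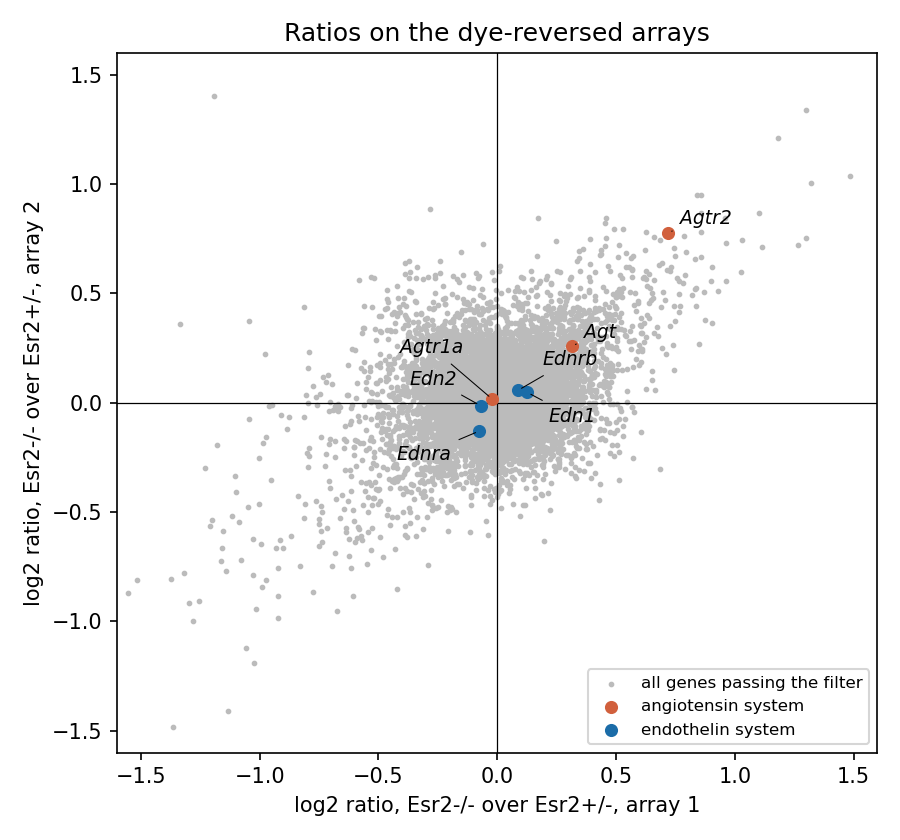
Log2 ratio of the Esr2-/- pool over the Esr2+/- pool on array 1 (x axis) and array 2 (y axis) for 18511 genes (grey, with 8 outside the plotted range), the angiotensin genes in orange and the endothelin genes in blue. Agtr2 stands out from the grey cloud toward the upper right at 0.72 and 0.78, Agt lies at its edge at 0.31 and 0.26, and the other 5 genes lie within it.

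The other genes that make, break down or relay angiotensin differed little between the pools. Of 20 listed genes 11 had a probe and 10 passed the filter, and none of the 10 passed the size rule in either direction. Their median log2 ratio was -0.02, with 1 gene above and 3 below 0 on both arrays. The largest was that of Enpep, which encodes aminopeptidase A, the enzyme that turns angiotensin II into angiotensin III. It had log2 ratios of -0.20 and -0.28 on arrays 1 and 2, a mean of -0.24 ± 0.06 (SD, n = 2 hybridisations), so the transcript of an enzyme that removes angiotensin II was lower in the null pool on both arrays. Anpep, which encodes aminopeptidase N, the next enzyme on that path, had a mean of 0.10 ± 0.08. Thop1, a peptidase gene, had -0.04 ± 0.28, with opposite signs on the arrays. Ren1, the renin gene, had -0.02 ± 0.05. The probe described as the type 1B receptor (Agtr1b) was well above background in 1 of 4 readings and gets no ratio.

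The other genes of the endothelin system had mean ratios closer still to equality, although some of their spots were dim. All 6 listed genes had a probe and passed the filter, none passed the size rule, and their log2 ratios lay between -0.05 and 0.0014 with a median of -0.02. Ece1, the main endothelin-converting enzyme gene, had a log2 ratio of -0.05 ± 0.02 (SD, n = 2 hybridisations). The third ligand gene Edn3 had -0.04 ± 0.0050, and Kel, a related peptidase gene, had -0.03 ± 0.03. Ece2, a further gene of this list, had log2 ratios of -0.14 and 0.13 on arrays 1 and 2, and -0.54 and 0.77 from the scanner software. Its spots were 1.385 and 1.76 times the local background in the null pool, and 1.45 and 1.55 times in the het pool. Its mean near 0 therefore rests on a dim signal and on opposite signs.

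Among the G proteins, phospholipases, kinases, arrestins and RGS proteins through which these receptors signal, 24 of 36 listed genes could be measured. None passed the size rule, 6 were above and 6 below 0 on both arrays, and the median log2 ratio was 0.0089. Rgs3, which encodes a protein that ends signalling by Gq and Gi, had the lowest log2 ratio, at -0.57 and -0.36 on arrays 1 and 2 (mean -0.47 ± 0.15, SD, n = 2 hybridisations). Gnai2, a Gi subunit gene, had -0.23 ± 0.39, with opposite signs on the arrays. Itpr1, the gene of a calcium release channel, had -0.22 ± 0.30, almost all of it from array 2. The probe of Rgs2 was left out on outlier flags.

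The list of other vasoactive peptide systems served as a wider setting. Of 27 listed genes 25 could be measured, none passed the size rule, 5 were above and 5 below 0 on both arrays, and the median log2 ratio was -0.01. Calcrl, which encodes the receptor shared by adrenomedullin and calcitonin gene-related peptide, had log2 ratios of -0.44 and -0.52 (mean -0.48 ± 0.06, SD, n = 2 hybridisations). Nos3, the endothelial nitric oxide synthase gene, had 0.34 ± 0.40, mostly from array 1. Nppc, which encodes the C-type natriuretic peptide that granulosa cells use to hold the oocyte in meiotic arrest, had -0.24 ± 0.15.

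**Figure D4:**
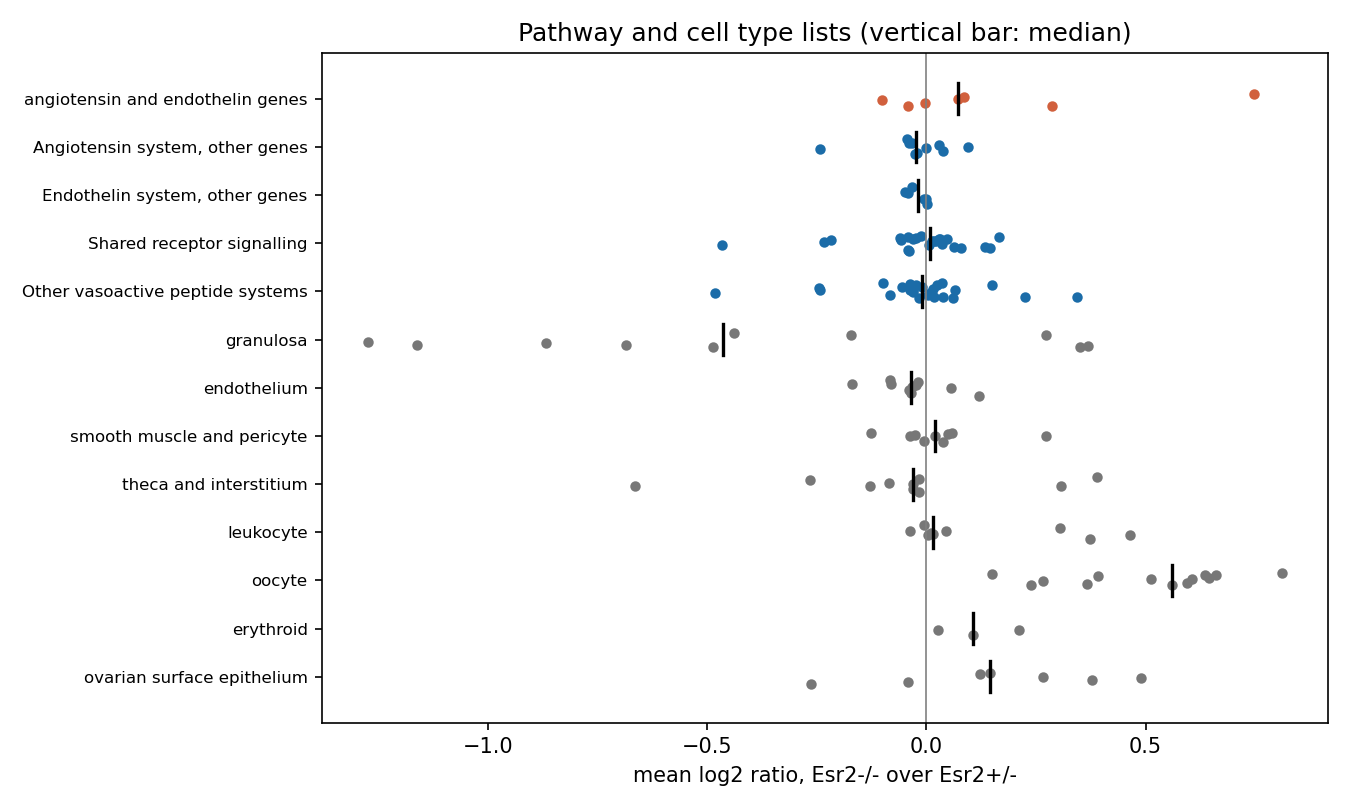
Mean log2 ratio of the Esr2-/- pool over the Esr2+/- pool for each measured gene of the angiotensin and endothelin set (orange), of 4 pathway lists (blue) and of 8 cell type marker lists (grey), with the median as a vertical bar. The pathway medians lie between -0.02 and 0.0089, the oocyte median is 0.56, and the granulosa median is -0.46 (-0.97 on array 1 and -0.08 on array 2); the erythroid points of Hba-a1 and Hbb-bt come from saturated spots.

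Markers of other cell types moved beside Agtr2 and Agt in these pools, and their part in those ratios was not tested. In bulk RNA, fewer cells of a type and less RNA per cell cannot be told apart. Oocyte markers were above 0 on both arrays for 13 of 13 measured genes, with a median log2 ratio of 0.56. Their summed linear signal was 19125 to 21692 in the null pool, against 12777 to 12993 in the het pool, and Gdf9, an oocyte growth factor gene, had 0.81 ± 0.30 (SD, n = 2 hybridisations). Ovarian surface epithelium markers were above 0 on both arrays for 5 of 7 genes, with Cdh1 (E-cadherin) at 0.49 ± 0.01. The other 2, the keratin genes Krt8 (-0.26 ± 0.08) and Krt18 (-0.04 ± 0.04), were below 0 on both arrays. The summed signal of all 7 was 1466 to 1744 in the null pool, against 1332 to 1658 in the het pool. Leukocyte markers were above 0 on both arrays for 5 of 9 genes, with a median of 0.02, Lyz2 (lysozyme) at 0.46 ± 0.05 and a summed signal of 2563 to 2643 in the null pool, against 2290 to 2538 in the het pool.

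The vascular lists, whose cells are known to carry endothelin and angiotensin receptors, had medians near 0, although several endothelial spots were dim. Endothelial markers had a median log2 ratio of -0.03 over 10 genes, with a summed signal of 1614 to 1682 in the null pool, against 1700 to 1742 in the het pool, and Egfl7 at -0.17 ± 0.01 (SD, n = 2 hybridisations). Smooth muscle and pericyte markers had a median of 0.02 over 9 genes, a summed signal of 3769 to 4552 in the null pool, against 3967 to 4432 in the het pool, and the contractile gene Cnn1 at 0.27 ± 0.09. Neither median kept its sign across arrays, at -0.08 and 0.0013 for endothelium and -0.06 and 0.10 for smooth muscle and pericytes on arrays 1 and 2. Of the 10 endothelial genes 1 was above and 3 below 0 on both arrays, and 6 were not. Of the 9 smooth muscle and pericyte genes 3 were above and 2 below 0 on both, and 4 were not. Medians near 0 therefore do not show equal vascular RNA in the pools. Theca and interstitium markers had a median of -0.03 over 10 genes and a summed signal of 12292 to 13473 in the null pool, against 19293 to 19425 in the het pool. The lowest of them was Hsd3b1, a steroid synthesis gene that granulosa cells also express, at -0.66 ± 0.11. Without Hsd3b1 the other 9 genes summed to 1629 to 1738 in the null pool, against 1578 to 1679 in the het pool, so that 1 gene carried the gap. Of the 10 genes only 2, the stromal genes Dcn (0.39 ± 0.06) and Pdgfra (0.31 ± 0.16), were above 0 on both arrays. Another 5 were below 0 on both, and 3 had opposite signs. The erythroid genes Hba-a1 and Hbb-bt were saturated in Cy5 on both arrays, so no ratio is given for them.

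Granulosa markers themselves had a median log2 ratio of -0.46 over 10 genes, with 6 below and 3 above 0 on both arrays. That median was -0.97 on array 1 alone and -0.08 on array 2 alone, so its size rests mostly on array 1. By the size rule 2 of them were lower in the null pool, and Cyp19a1, the aromatase gene, was the lowest at -1.27 ± 0.20 (SD, n = 2 hybridisations). Their summed signal was 13282 to 16082 in the null pool, against 22849 to 29673 in the het pool. Inhba, the other gene lower by the size rule, was the brightest of them, so much of that gap lies in 1 gene. Its log2 signals were 12.65 and 12.87 in the null pool on arrays 1 and 2, against 14.16 and 13.68 in the het pool. The 3 markers above 0 on both arrays were Kitl (0.37 ± 0.17), Amhr2 (0.35 ± 0.03) and Amh (0.27 ± 0.21), beside 0.29 for Agt. Agtr2 and Agt thus shared their direction with these 3 markers and not with the 6 that were below 0 on both arrays.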

How the data were processed

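Both pools were measured on dye-reversed two-colour arrays. Per the labels' protocols, 500 ng of total RNA was amplified and 750 ng of each labelled cRNA was hybridised for 17 h. The deposited scanner files hold spot and background intensity per channel, made with Agilent Feature Extraction A.7.5.1 per the file headers. Their deposited LogRatio is log10 of red over green after spatial detrending and dye normalization, per the file headers, and the deposited error-model p-value and the error score of each log ratio cover 1 spot. The deposited series table holds log2 red over green values, which matched the scanner ratios within 0.001 for 99.8% of probes on each array; its columns are not turned to one genotype, with medians of 0 and 0.0022.

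From the scanner files, mean signals were corrected with normexp (offset 50) using each spot's median background, and loess was then run per array, control spots at weight 0 (limma 3.58.1, R 4.3.3; Python 3.11.15). With the offset, ratios of dim spots shrink toward 0. Signals per channel were scaled with Aquantile. Spots with outlier flags were left out (146 probes). Ratios were turned to null over het and the arrays averaged as 1 replicate. Of 20868 probes, 8947 were named by accession through the RefSeq table of GRCm38.p6, 417 by a symbol and 763 by a synonym in the description and 9, Ace among them, by the description's words. The brightest probe stood for a gene. The number of arrays limits the precision. No model was fitted, since each genotype had 1 pool. The calling rule was tested on simulated data.

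The 8 genes, the pathway lists and the cell type lists (granulosa, endothelium, smooth muscle and pericyte, theca and interstitium, leukocyte, oocyte, erythroid, ovarian surface epithelium) were chosen with earlier results of these data known. Named genes were the 8, Esr2, in each pathway list the genes passing the size rule or else the 3 with the largest absolute ratio, and in each cell type list the 1 farthest from 0. All other genes named were named outside that rule, with their values known. Among them were Ren1, Agtr1b, Ece2, Rgs2, Npr2, Npr3, Adm, the Ramp genes, Dcn, Pdgfra, Krt8, Krt18, Amh, Amhr2, Kitl, Inhba, Hba-a1 and undetected markers. Other settings tried were the series table, the scanner software's ratios, no background subtraction, offset 0, median centring, other background filters, the mean over probes, each array alone, an added limit of 0.01 on the error-model p, and 1.5-fold as the size.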

Additional observations from a re-analysis of the deposited data

How the results depend on the processing

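All alternatives were planned, except the differences between pairs of genes and the theca sum without Hsd3b1, chosen after the data were seen. Of 70 ratios of the 7 measured genes recomputed under 10 alternatives, 47 stayed within the SD between arrays, 18 moved further and 5 turned in sign. Many of the 47 were fixed in advance, so that count does not measure robustness. Each gene had 1 probe and cleared background in every reading, so changing the filter or averaging its probes returned the same ratio. With 2 arrays, either array alone always lies within the SD of their mean. The series table also repeated the scanner software's ratios. Agtr2 stayed above 0 in all 10 alternatives (0.72 to 1.10), as did Agt (0.24 to 0.31). The count of members higher by the size rule, 0, became 1 (Agtr2) with the scanner software's ratios, the series table, offset 0 and the 1.5-fold threshold. Members below 0 on both arrays, 2, became 1 under median centring. The Agtr1a ratio turned to 0.05 with the scanner software's ratios and the series table (0.0541), to 0.11 under median centring and to 0.017 on array 2 alone; Edn2 turned to 0.011 under median centring. Over all genes, 7 higher and 17 lower became 26 and 45 with the scanner software's ratios and the series table, 23 and 43 with offset 0, 75 and 76 at 1.5-fold, and ranged from 7 to 12 and from 10 to 40 with 1 array alone. Apart from the lower threshold and the single array, the cause was not tested. Signal over background limits the dim genes, Edn2 and Ace above all. The spots of Edn1 were also dim, at 1.93 to 2.96 times the local background. Those of Ednrb (1.97 to 3.67) and Ednra (2.12 to 4.94) were little brighter. No paired analysis was possible because each genotype had 1 pool.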

Other observations

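The receptor for adrenomedullin and calcitonin gene-related peptide is Calcrl paired with 1 of 3 partner proteins, and the genes of these partners were looked at after their values were seen. Beside the Calcrl log2 ratio of -0.48, Ramp2 had 0.19 and 0.26 on arrays 1 and 2, above 0 on both. Ramp1 had opposite signs on the arrays (-0.53 and 0.05), and Ramp3 had -0.03 and 0.06. The ligand gene Adm had 0.21 and -0.08. Thus the receptor gene and the partner gene Ramp2 had ratios of opposite sign on both arrays. The scanner software's ratio gave -0.90 for Calcrl and 0.37 for Ramp2.

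For C-type natriuretic peptide, whose receptor genes were likewise looked at after their values were seen, the ligand gene Nppc was below 0 on both arrays (-0.35 and -0.14), while Npr2, its receptor in cumulus granulosa cells, had -0.05 and 0.01. Npr3, the clearance receptor gene, had -0.20 and 0.21.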
